A study of Mus musculus with 3 samples.

Results

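Chemokine and formyl peptide receptors were described in total RNA-seq of macrophages: Ccr1, Ccr2, Ccr7, Ccrl2, Cx3cr1, Cxcr4, Fpr1 and Fpr2. These 8 genes were chosen by symbol out of 55536 annotated genes. The cells were C57BL/6J mouse macrophages derived from bone marrow in culture. They received 100 ng/ml Lipid A, the membrane anchor of bacterial lipopolysaccharide that activates TLR4, for 12 h. After 12 h of washout they were given 100 ng/ml Lipid A again for 90 min, and RNA was taken from the cytosolic fraction. The 3 libraries are biological replicates 1, 2 and 3 of this 1 group and carry the same donor record, so spreads and p-values cover variation between these samples, which may be technical. Age and sex were not recorded. Unexposed cells and cells exposed once were not analysed here, so every value is a level in restimulated cells and not a response to Lipid A.

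Chemokine receptors and formyl peptide receptors are membrane proteins that span the membrane as a bundle of helices and guide leukocytes along gradients of attractants. Binding of the ligand activates G proteins of the Gi class, which drive calcium release, phosphoinositide 3-kinase activity and actin assembly, and receptor kinases and arrestins then shut the receptor off. Ccr1 binds Ccl3, Ccl5 and Ccl9, Ccr2 binds Ccl2, Ccl7 and Ccl12, and Ccr7 binds the lymph node chemokines Ccl19 and Ccl21. Cx3cr1 binds fractalkine, the product of Cx3cl1, and Cxcr4 binds Cxcl12, which holds cells in the bone marrow. Fpr1 and Fpr2 recognise peptides that start with formylmethionine, as bacteria and mitochondria make them. Fpr2 also binds annexin A1 and the cathelicidin peptide encoded by Camp. Ccrl2 is an atypical member that binds chemerin, the product of Rarres2, without known coupling to G proteins and is held to present it to the signalling receptor Cmklr1.

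The coding sequences of the 8 genes differed at a position that bears on contact with the G protein. Typical chemokine receptors carry an Asp-Arg-Tyr triplet at the inner end of the third helix, where the receptor meets the G protein. For 7 of the 8 genes, the stretches of 33 nt around the aligned position are given in lower case, with the 9 bases of the 3 codons in capitals, from GENCODE M21 transcripts on mm10.
Ccr1: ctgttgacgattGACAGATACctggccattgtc
Ccr7: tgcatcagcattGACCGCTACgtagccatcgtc
Cx3cr1: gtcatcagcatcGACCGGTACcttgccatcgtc
Cxcr4: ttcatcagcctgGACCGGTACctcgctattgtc
Fpr1: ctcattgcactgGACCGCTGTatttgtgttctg
Fpr2: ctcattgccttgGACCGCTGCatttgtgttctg
Ccrl2: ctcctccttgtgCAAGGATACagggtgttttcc
The 3 codons of Asp-Arg-Tyr stood at that position in 5 of the 8 genes, which are Ccr1, Ccr2, Ccr7, Cx3cr1 and Cxcr4. In Ccrl2 the codons encode Gln-Gly-Tyr in place of this triplet, and 6 of the 9 capital bases were identical to those of Ccr1. In Fpr1 and Fpr2 the codons encode Asp-Arg-Cys, with 5 and 6 of the 9 bases identical to Ccr1. These 2 genes thus keep Asp-Arg and differ in the last residue only, whereas Ccrl2 lacks both Asp and Arg. The Ccrl2 stretch lies at chr9:111056015-111056047 on the minus strand, within the coding exon.

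Ccrl2 was by far the most abundant of the 8 receptors, with a mean of 169 TPM, and the 2 formyl peptide receptors followed near 25 TPM. Ccr1 stood at 7.17 TPM, and Cxcr4, Ccr2 and Ccr7 lay between 1.45 and 3.34 TPM. Cx3cr1 was close to the bottom at 0.157 TPM. TPM is a level of abundance scaled to the library and corrected for effective transcript length, and means are given with the SD over the 3 libraries. With detection set at a minimum of 1 TPM in each library, 7 of the 8 receptors were detected, against 40.1% of 22015 nuclear protein-coding genes, and Cx3cr1 was the exception. In the transcript table made directly from the reads, 6 of the 8 reached this level, and Ccr7 averaged 0.765 TPM there. The 8 genes were chosen with earlier results of these data known, so the number detected is descriptive.

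The libraries held 40730514, 70484996 and 49726063 expected counts. The abundant 7SL RNAs Rn7s1 and Rn7s2 took 56.4 to 60.6% of TPM, and nuclear protein-coding genes at most 33.2%. TPM of each receptor is therefore also given rescaled so that nuclear protein-coding genes alone make up the total, called protein-coding-scaled TPM, since that share differs between libraries. All 7 macrophage markers examined were detected, at means of 36.6 to 3262 TPM. Of 3 genes listed as monocyte markers 1 was detected, Ly6c2, at 12.4 TPM. Of 31 markers of other cell types 3 were detected, S100a8, S100a9 and Batf3. In bulk RNA, fewer cells that express a receptor and less of its RNA per cell cannot be told apart.

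**Figure D1:**
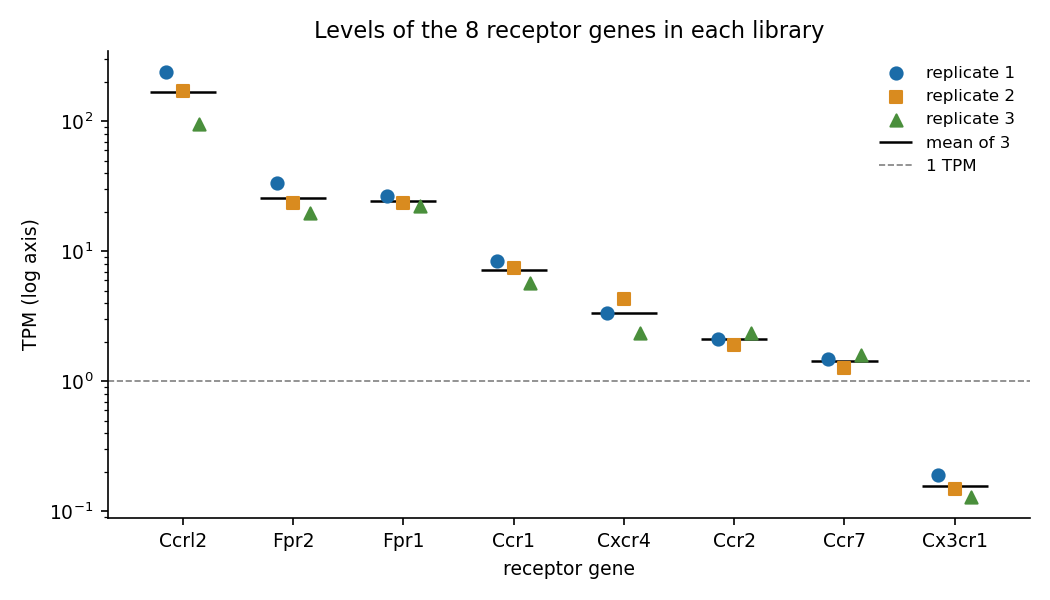
TPM (log axis) of the 8 receptor genes in replicates 1, 2 and 3, ordered by mean; black lines are means of 3 libraries and the dashed line is 1 TPM. Ccrl2 lies far above the others, the 3 libraries of Fpr2 and Fpr1 overlap, and Cx3cr1 is below 1 TPM in every library.

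Ccrl2 (ENSMUSG00000043953.12, chr9:111054486-111057519, minus strand, mm10), the atypical chemerin-binding receptor, had 239.9, 172 and 95.6 TPM in replicates 1, 2 and 3 (169 ± 72.2 TPM, n = 3), from 21204, 30011 and 12552 expected counts. Replicate 1 was the highest and replicate 3 the lowest, and the highest value was 2.51 times the lowest. On the protein-coding scale the 3 values were 724, 582 and 342 TPM, again highest in replicate 1 and lowest in replicate 3, and the highest was 2.12 times the lowest. Ccrl2 ranked at place 263 among nuclear protein-coding genes and stood above 97.0% of those detected. It made up 71.0 ± 6.48% of the summed TPM of the 8 receptors.

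The signalling receptor for chemerin, Cmklr1, was far lower than Ccrl2. Cmklr1 had 20.3, 17.8 and 23.1 TPM in replicates 1, 2 and 3, so Ccrl2 was 11.8, 9.64 and 4.14 times as abundant. The log2 ratio of Ccrl2 to Cmklr1 TPM averaged 2.96 ± 0.80 (SD, n = 3) and was positive in all 3 libraries. With 3 libraries, a two-sided exact sign-flip test of such a ratio cannot go below p = 0.25, so ratios are given without a test. Rarres2, the gene of their shared ligand, averaged 0.0100 ± 0.0173 TPM.

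Fpr2 (ENSMUSG00000052270.7, chr17:17887824-17893952, plus strand), the receptor for formyl peptides and annexin A1, had 33.8, 23.7 and 19.9 TPM (25.8 ± 7.22, n = 3). Fpr1 (ENSMUSG00000045551.7, chr17:17876471-17883940, minus strand), the receptor named for bacterial formyl peptides, had 26.6, 23.6 and 22.5 TPM (24.3 ± 2.13, n = 3). Fpr2 and Fpr1 stood above 79.7 and 78.5% of the detected protein-coding genes, and their ranges overlapped. The log2 ratio of Fpr2 to Fpr1 TPM was 0.35, 0.00 and -0.18 in replicates 1, 2 and 3, with a mean of 0.06 ± 0.27. The sign changed between libraries, so the gene totals of these neighbours did not differ beyond their spread. This holds for the sum of the Fpr2 transcripts only. Fpr2-201, which carries the receptor's coding sequence of 1053 nt, had 12.7, 10.3 and 9.09 TPM, below Fpr1 in each library.

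Scaled over protein-coding genes, Fpr1 had 80.4, 79.8 and 80.6 TPM, a coefficient of variation of 0.504%. Fpr2 on that scale had 102, 80.1 and 71.1 TPM, a coefficient of variation of 18.9%. The starts of these 2 genes lie 3883 bp apart on opposite strands. Of the other formyl peptide receptor genes, Fpr3, Fpr-rs3, Fpr-rs4, Fpr-rs6 and Fpr-rs7, all 5 had 0 counts in each library. At the depth of the shallowest library, 3 counts of these genes would correspond to 0.0479 to 0.0658 TPM. Among endogenous Fpr2 ligands, Anxa1 averaged 89.0 ± 17.7 TPM and Camp 0.193 ± 0.0252 TPM. Fpr1 and Fpr2 are also known from neutrophils, and of that list of 8 markers 2 were detected, with summed levels of 12.8, 8.40 and 13.6 TPM in replicates 1, 2 and 3. The detected ones were S100a9 at 6.58 TPM and S100a8 at 4.12 TPM. Of the others, Ly6g and Retnlg were at 0 in all 3 libraries, and Ngp, Camp, Mpo and Elane averaged 0.590, 0.193, 0.0633 and 0.0367 TPM. The part of such cells in the levels of Fpr1 and Fpr2 was not tested.

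Ccr1 (ENSMUSG00000025804.5, chr9:123962124-123968692, minus strand), a receptor for inflammatory CC chemokines, had 8.39, 7.45 and 5.67 TPM (7.17 ± 1.38, n = 3) from 1360, 2305 and 1306 expected counts. Its range did not overlap that of Fpr1 above it, with a log2 ratio of Fpr1 to Ccr1 of 1.77 ± 0.19, or that of Cxcr4 below it, with a log2 ratio of Ccr1 to Cxcr4 of 1.13 ± 0.29. Replicate 3 was the lowest. On the protein-coding scale Ccr1 had 25.3, 25.2 and 20.3 TPM, so replicates 1 and 2 lay close together.

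Ccr2 (ENSMUSG00000049103.14, chr9:124101950-124113557, plus strand), the receptor that brings monocytes out of the bone marrow, had 2.11, 1.91 and 2.37 TPM (2.13 ± 0.231, n = 3). Ccr1 was 3.98, 3.9 and 2.39 times as abundant as Ccr2 in replicates 1, 2 and 3, a log2 ratio of 1.74 ± 0.42. Replicate 3 had the highest Ccr2 and the lowest Ccr1 of the 3 libraries. On the protein-coding scale Ccr2 had 6.36, 6.46 and 8.48 TPM, again highest in replicate 3. Cx3cr1 (ENSMUSG00000052336.7, chr9:119901616-120069879, minus strand), the fractalkine receptor of patrolling monocytes and many tissue macrophages, had 0.19, 0.15 and 0.13 TPM from 41, 61 and 42 expected counts, and 0.573, 0.508 and 0.465 TPM on the protein-coding scale. The log2 ratio of Ccr2 to Cx3cr1 averaged 3.78 ± 0.37, and Ccr2 was at least 11.1 times as abundant in each library. Of 3 genes listed as monocyte markers 1 was detected, Ly6c2, at 16.5, 12.1 and 8.75 TPM in replicates 1, 2 and 3. The undetected genes of that list, F13a1 and Cd177, averaged 0.587 and 0.0100 TPM. The list summed to 17.02, 12.8 and 9.31 TPM, so most of it was Ly6c2. The part of monocytes in the Ccr2 level was not tested.

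The annotated span of Cx3cr1 covers 168264 bp and overlaps 9 other genes, 6 of them on the opposite strand, of which Csrnp1 was the most abundant at 39.3 TPM. This overlap is of whole gene spans, introns included, and overlap of exons was not examined. The authors' posterior SD of the Cx3cr1 count was 0 in each library. No source used here states a strand setting for the counting, and a part of opposite-strand neighbours in the Cx3cr1 counts was not tested. Of the other 7 receptors, 6 overlap no annotated gene, and Fpr2 overlaps only Fpr3.

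Cxcr4 (ENSMUSG00000045382.6, chr1:128588199-128592293, minus strand), the receptor for Cxcl12, had 3.36, 4.31 and 2.34 TPM (3.34 ± 0.985, n = 3). Replicate 2 was the highest and replicate 3 the lowest, also on the protein-coding scale, with 10.1, 14.6 and 8.37 TPM. The log2 ratio of Cxcr4 to Ccr2 was 0.67, 1.17 and -0.02, so the order of these neighbours was not settled by 3 libraries. Ackr3, the atypical receptor that scavenges Cxcl12, had 0 counts in each library. Against a limit of 3 counts per library, Cxcr4 was at least 104-fold higher than Ackr3 in the library with the lowest bound. The bound rests on the counts: the authors' posterior mean TPM gives Ackr3 a value above 0, and the log2 ratio was 5.53 with it.

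Ccr7 (ENSMUSG00000037944.8, chr11:99144196-99155077, minus strand), the lymph node homing receptor, had 1.49, 1.26 and 1.59 TPM (1.45 ± 0.169, n = 3) from 162, 263 and 246 expected counts. On the protein-coding scale it had 4.49, 4.26 and 5.69 TPM. It was below Ccr2 in each of the libraries, at a log2 ratio of Ccr2 to Ccr7 of 0.56 ± 0.05, and above Cx3cr1, with a log2 ratio of 3.22 ± 0.35. Both ratios kept their sign in all 3 libraries, and the ranges did not overlap. Ccr7 is characteristic of migrating dendritic cells, and of 6 dendritic cell markers only Batf3 was detected, at 1.23 TPM. That list summed to 1.65, 1.49 and 1.61 TPM in replicates 1, 2 and 3. Its undetected genes Xcr1, Siglech, Zbtb46, Clec9a and Flt3 averaged 0.0967, 0.0767, 0.0733, 0.0667 and 0.04 TPM. The part of such cells in the Ccr7 level was not tested.

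The 8 receptors were set beside 29 related receptor genes. While 7 of the 8 were detected, 5 of these 29 genes were, namely Cxcr3, C3ar1, C5ar1, Cmklr1 and Ptafr. Both sets were chosen with earlier results of these data known, so these counts describe the sets and were not tested against each other. Only 1 of 13 other chemokine receptors and 0 of 4 atypical chemokine receptors reached the threshold. On the protein-coding scale 7 of the 29 genes reached 1 TPM, and 6 did by the posterior mean TPM, while 7 of the 8 receptors did by either. In the transcript table made directly from the reads, 4 of the 29 did. Of the atypical receptors, Ackr2 and Ackr3 had 0 counts, and Ackr1 and Ackr4 averaged 0.00667 and 0.00333 TPM. The complement receptor C3ar1 averaged 256 ± 42.3 TPM, the platelet-activating factor receptor Ptafr 116 ± 27.2 TPM and the C5a receptor C5ar1 113 ± 33.3 TPM. Ccrl2 lay within this group of abundant chemoattractant receptors, while the other 7 lay below it. Cxcr3 averaged 1.57 ± 0.125 TPM, and Ccr6 and Ccr8 had 0 counts in every library.

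**Figure D2:**
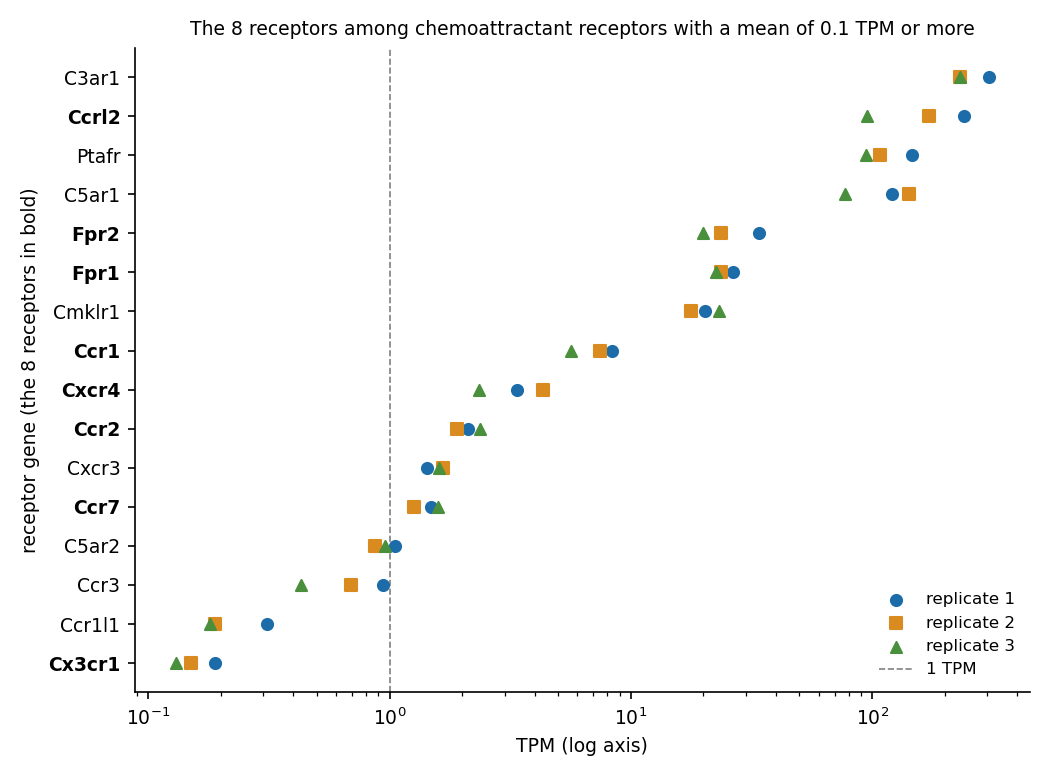
TPM (log axis) in replicates 1, 2 and 3 for the 16 of 37 chemoattractant receptor genes with a mean of 0.1 TPM or more, ordered by mean, with the 8 receptors in bold and a dashed line at 1 TPM. Ccrl2 sits with C3ar1, Ptafr and C5ar1, the formyl peptide receptors sit beside Cmklr1, and Cx3cr1 is the lowest gene drawn.

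**Figure D3:**
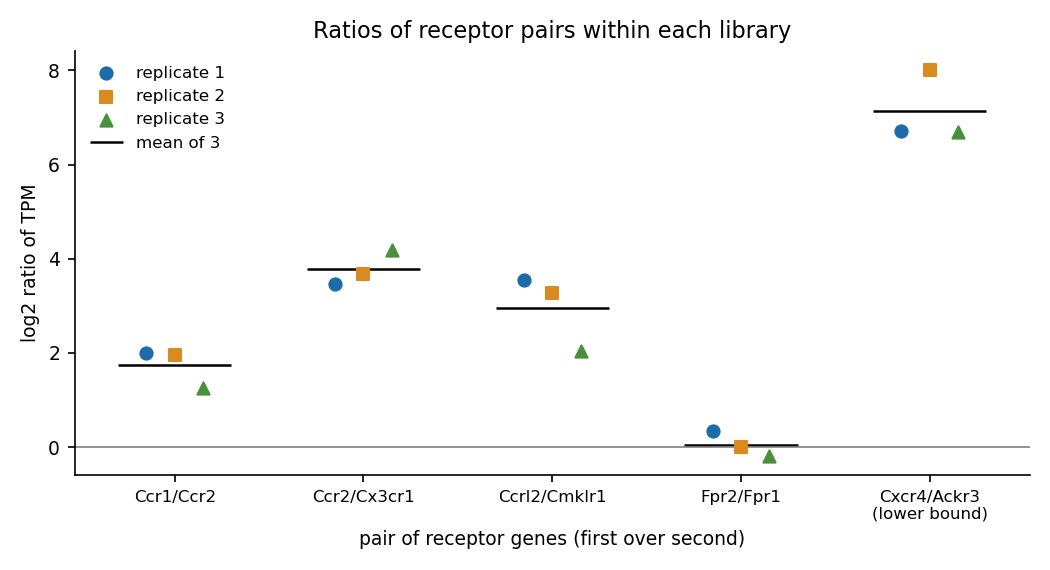
Log2 ratio of TPM (first gene over second) within each library for 5 receptor pairs, with black lines at the mean of 3 libraries; Ackr3 had 0 counts, so its ratio uses a limit of 3 counts and is a lower bound. The ratios lie on 1 side of 0 in all libraries except for Fpr2/Fpr1, and that of Ccrl2/Cmklr1 is lowest in replicate 3.

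Ligand genes of these receptors spanned a wide range, down to 0 counts. Of 15 ligand genes 9 were detected. The inflammatory CC chemokines were high, with Ccl5 at 5268 ± 883 TPM, Ccl4 at 946 ± 568 TPM and Ccl3 at 882 ± 463 TPM, and the Ccr2 ligand Ccl7 averaged 532 ± 179 TPM. The Ccr7 ligands Ccl19 and Ccl21a had 0 counts in each library. The Cxcr4 ligand Cxcl12 averaged 0.00333 ± 0.00577 TPM and the Cx3cr1 ligand Cx3cl1 0.167 ± 0.176 TPM. The list thus held detected ligand genes of Ccr1, Ccr2 and Fpr2 and no detected ones of Ccr7, Cxcr4, Cx3cr1 or Ccrl2.

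All 11 genes of the signalling list were detected. Among them Rac2, a GTPase of actin assembly, averaged 180 ± 30.8 TPM, and Gnai2, the main Gi subunit of leukocytes, 177 ± 9.38 TPM. Gnb1, a G protein beta subunit, averaged 127 ± 7.95 TPM, and Pik3r5, a regulatory subunit of phosphoinositide 3-kinase gamma, 74.0 ± 13.7 TPM. Of the 11 genes that shut receptors off, 9 were detected. Rgs1, which speeds GTP hydrolysis on Gi proteins, was the highest of these at 819, 503 and 235 TPM in replicates 1, 2 and 3, and arrestin Arrb2 averaged 93.8 ± 4.24 TPM. The receptor kinase Grk2 averaged 49.7 ± 3.99 TPM, and Rgs19, another regulator of G proteins, 27.6 ± 1.08 TPM. Rgs1, like Ccrl2, was highest in replicate 1 and lowest in replicate 3.

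Differences between the 3 libraries were tested for every gene with edgeR, by the deviance of each gene around its mean under the trended dispersion, over 12256 genes with p-values adjusted by the Benjamini-Hochberg method. None of the 8 receptors was called at an adjusted p under 0.05, against 1.96% of all genes tested, and the count was also 0 with DESeq2 size factors and in the other alternatives run. At an unadjusted p under 0.05 there was 1 of 8, which was Ccrl2, against 6.88% of all genes. For Ccrl2 the edgeR adjusted p was 0.1082, and it ran from 0.09096 to 0.9997 over the alternatives tried. Its unadjusted edgeR p-value was 0.002745, and 0.2508 without replicate 3. The SD of its log2 CPM (counts scaled to library size), 0.58, lay at percentile 94.5 of all genes, whose median SD was 0.16.

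Cxcr4 and Fpr2 followed, with SDs of 0.38 and 0.31 on the log2 scale, and their edgeR p-values were 0.09901 and 0.07764 before adjustment. Fpr1 had the smallest SD of the 8, 0.07, at percentile 16.2 of all genes. The median SD of the 8 receptors was 0.22. Among the genes listed beside them, the ligands Ccl2, Ccl3, Ccl4, Ccl8 and Ccl12 were called as more variable than the trend, 5 of 10 ligand genes tested, and so was Rgs1, with an edgeR adjusted p of 0.003539.

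**Figure D4:**
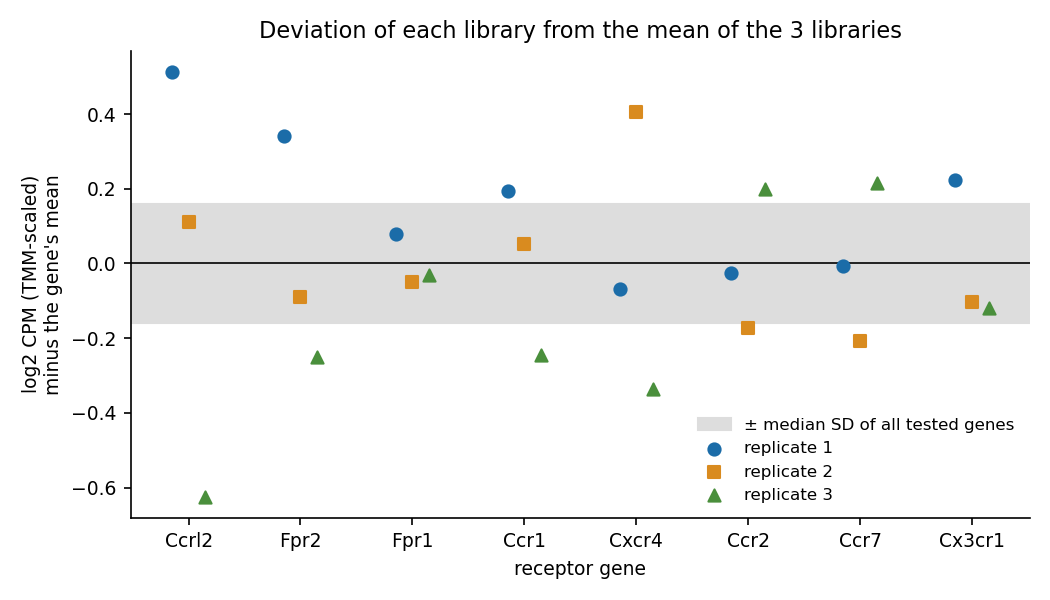
Log2 CPM (TMM-scaled counts) of each receptor in replicates 1, 2 and 3 minus its mean of the 3 libraries; the grey band is ± the median SD of all tested genes, 0.16. Ccrl2 spreads farthest, with replicate 1 high and replicate 3 low, while the Fpr1 points stay within the band.

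Because Ccrl2 had both the highest mean and the largest spread of the 8, genes that followed it across the libraries were sought by the root mean square difference in deviations of log2(TPM + 1). Among 5852 protein-coding genes with a mean of 5 TPM or more, 11 lay within 0.1 of Ccrl2. The closest were Il10 with 8.13, 5.52 and 2.77 TPM, AA467197 with 9.00, 6.41 and 3.20 TPM, and Slc38a2 with 17.7, 13.3 and 6.75 TPM in replicates 1, 2 and 3. Their differences from Ccrl2 were 0.0223, 0.0280 and 0.0345 on the log2 scale. The 1 TPM added before the logarithm shrinks the deviations of genes at a few TPM more than those of Ccrl2. These differences, their order and the number of genes within 0.1 therefore depend on it. This likeness is over 3 libraries only and describes them.

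The annotated transcripts of each gene were compared by their share of its TPM. Ccr1, Ccr7 and Fpr1 have 1 annotated transcript each. For Ccrl2, the transcript Ccrl2-203, which has 3 exons and a coding length of 1080 nt in 1 of them, took 64.1, 64.5 and 72.0% in replicates 1, 2 and 3 (66.8 ± 4.44%, n = 3). Ccrl2-202, annotated with an incomplete end, took 19.7 ± 2.91%, and Ccrl2-201 took 13.5 ± 1.97%. In the transcript table made directly from the reads, Ccrl2-202 took more, 30.9 ± 3.85%, and Ccrl2-203 took 57.4 ± 4.88%. Ccrl2-203 led in every library in both transcript tables.

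For Fpr2, the transcript Fpr2-202 took 62.4, 56.5 and 54.3% (57.7 ± 4.22%), and Fpr2-201 took the remaining 42.3 ± 4.22%. Fpr2-202 is annotated with a coding sequence of 144 nt, and Fpr2-201 with the receptor's 1053 nt. The transcript with the short coding sequence was the larger in all 3 libraries, though its length of 883 nt against 1133 nt makes the shares depend on the length correction. Expected counts of Fpr2-202 were 846, 1045 and 619, and those of Fpr2-201 were 708, 1111 and 723, so by counts Fpr2-202 was the larger in replicate 1 only.

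Ccr2-202, a transcript of a single exon, took 78.2, 72.9 and 63.1% of Ccr2 TPM (71.4 ± 7.68%), while Ccr2-201, of 3 exons, took 1.15, 9.35 and 22.1%. The other spliced transcripts had their lowest shares in replicate 3, where Ccr2-201 had its highest. Ccr2-203 took 11.9, 9.63 and 8.19%, and Ccr2-204 took 8.79, 8.16 and 6.68%. All 4 Ccr2 transcripts share a coding length of 1119 nt. In the transcript table made directly from the reads, Ccr2-202 took 54.9 ± 9.74% and Ccr2-201 took 13.1, 24.2 and 40.7%, again most in replicate 3. Cxcr4-201 took 82.4, 91.1 and 96.2% of Cxcr4 (89.9 ± 7.0%). Cx3cr1-201 took 96.4 ± 6.25% of the little Cx3cr1 signal, but 74.4 ± 11.4% by the authors' posterior mean TPM.

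**Figure D5:**
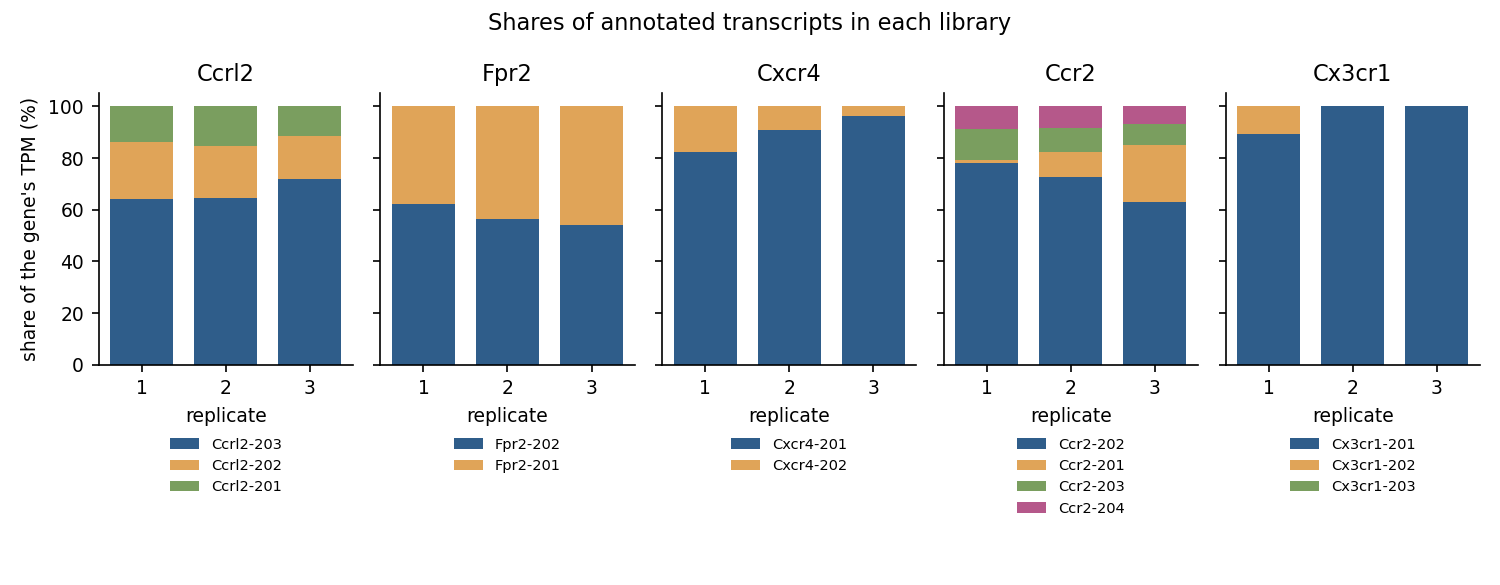
Share of each gene's TPM (%) taken by its annotated transcripts in replicates 1, 2 and 3, as stacked bars, for the 5 receptors with more than 1 annotated transcript. Ccrl2-203, Fpr2-202, Cxcr4-201, Ccr2-202 and Cx3cr1-201 lead in every library, and the share of Ccr2-201 is largest in replicate 3.

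Several of these genes have near copies, which matters for reads assigned by similarity. The authors' posterior SD of the Ccr2 count was at most 0.209% of that count, the largest of the 8 receptors. Fpr2 and Fpr3 were identical at 88.2% of aligned coding positions with a longest run of 94 nt, and Fpr3 had 0 counts. Fpr2 and Fpr1 were identical at 71.4% with a run of 50 nt, and Ccr1 and Ccr3 at 72.2% with a run of 47 nt. Ccrl2 was the most distant of the receptors compared with Ccr1, at 62.6% identity and a longest run of 12 nt.

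Ccr1 and Ccr2 lie in a cluster on chromosome 9 that was examined from Slc6a20a to Ccr2. This stretch holds 10 protein-coding genes, of which 4 were detected, namely Lztfl1, Fyco1, Ccr1 and Ccr2. The receptor genes Ccr9, Cxcr6, Xcr1 and Ccr1l1 there each averaged at most 0.227 TPM, and Ccr3, between Ccr1l1 and Ccr2, averaged 0.687 ± 0.255 TPM. Detected and undetected receptor genes were thus interspersed along the cluster. Ccrl2 lies elsewhere on chromosome 9, and its neighbour Ltf averaged 0.130 ± 0.0608 TPM.

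Promoter windows, from 250 bases before to 50 bases after the gene start, were found for 7 of the 8 receptors in RefSeq (GRCm38.p6), in 9 windows, and Ccr7 was not among them. They were searched on both strands for the kappaB consensus, AP-1 (TGANTCA), the interferon-stimulated response element (ISRE) and the PU.1 core (GAGGAAG). A kappaB match was present in 1 window of Ccrl2 and in the window of Ccr1, so in 2 of the 9 windows and 2 of the 7 genes. The other windows of Ccrl2 held none. Among 32851 windows of this length in RefSeq, 8.46% hold one. No window of the 7 genes held the other 3 motifs, which occur in 7.81, 3.44 and 13.6% of all windows, and no overlap between motifs arose. The window at the start of the leading transcript Ccrl2-203, chr9:111057469-111057768 on the minus strand, is given 5′ to 3′ because Ccrl2 was the most abundant receptor, with the kappaB match in capitals.
Ccrl2 promoter: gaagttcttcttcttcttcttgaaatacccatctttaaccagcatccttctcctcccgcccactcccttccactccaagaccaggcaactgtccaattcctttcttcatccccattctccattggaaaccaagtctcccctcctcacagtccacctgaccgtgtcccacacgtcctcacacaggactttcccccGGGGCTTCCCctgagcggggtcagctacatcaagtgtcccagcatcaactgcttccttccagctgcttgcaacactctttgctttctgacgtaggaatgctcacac
Its match begins 56 bases before the start, and that of Ccr1 begins 74 bases before its own. A match is a string of letters, and no binding was measured in these samples.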

How the data were processed

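Total RNA-seq from the cytosolic fraction was analysed in 3 libraries of 1 group, with 1 µg of input RNA and insert sizes between 250 and 400 nt, per the labels. Each library has a gene table and a pair of transcript tables on mm10 with annotation M21, per the deposited notes. Programs and strand setting were not given in the sources used here, and the columns are those RSEM and kallisto write. The expected counts are the authors' estimated counts per gene or transcript, without normalization, per the file headers. The TPM values were scaled by the authors for effective length and library size, as deposited. FPKM values are also deposited in the gene table, per the file headers, and were not printed. The percent values give, for each transcript, its part of the gene's TPM, per the file headers. A posterior SD is deposited beside each count.

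The 8 receptors, gene lists and tests were chosen with earlier results of these data known. All 8 receptors were named, with the 4 highest genes of each receptor, ligand, signalling and shut-off list (not the marker lists), every gene of a pair and up to 3 of the lowest. Other genes of these lists, and the neighbours, were named after their values were seen. A gene was called detected at 1 TPM in all 3 libraries. Log2 ratios used TPM without a pseudocount. For genes with 0 counts, a limit of 3 counts per library was used, which covers counting error only. Expected counts were rounded, filtered with filterByExpr and scaled with TMM in edgeR 4.0.16 under R 4.3.3. Variability between libraries was then tested by comparing the residual deviance of an intercept-only fit under the trended dispersion with chi-square at 2 degrees of freedom. The script was tested on simulated data. Alternatives were other thresholds, pseudocounts, scalings, the posterior mean TPM, counts in place of TPM, the transcript table made directly from the reads, and leaving out each library. Promoters came from RefSeq and coding sequences from GENCODE M21, aligned with Biopython 1.88. Common dispersion corresponded to a biological coefficient of variation of 0.163, so no libraries were taken as copies. Some of the genes and sequences first chosen are not reported here.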

Additional observations from a re-analysis of the deposited data

How the results depend on the processing

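No paired analysis was possible because the 3 libraries form 1 group. The alternatives left 59 values of the main comparisons on the same side and within the spread or within 1.5 times, moved 10 and reversed 2. At a threshold of 5 TPM, 4 receptors were detected in all libraries in place of 7. With expected counts in place of TPM the log2 ratio was 2.10 for Ccrl2/Cmklr1 and -0.47 for Fpr2/Fpr1, and Fpr2/Fpr1 changed sign. Counts are not corrected for length. Adding 1 or 0.1 TPM to both genes gave 1.43 and 3.12 for Ccr2/Cx3cr1 and 2.09 and 5.06 for Cxcr4/Ackr3, since an added value pulls the ratio of a low gene to 0. With the posterior mean TPM, which gives Ackr3 a value above 0, Cxcr4/Ackr3 was 5.53. That ratio was not run in the transcript table made directly from the reads, where Ackr3 is listed at 0 in some libraries. Leaving out a library moved Fpr2/Fpr1 between -0.0881, without replicate 1, and 0.17, so its sign rests on replicate 1. The number of genes more variable than the trend was 240, and 82 to 119 when a library was left out, 119 without replicate 1, 102 without replicate 2 and 82 without replicate 3; these fits have fewer libraries. The number of receptors called was 0 throughout. Of the levels and transcript shares of single receptors, 68 stayed within 1 SD and 21 moved: 8 under the rescaling over protein-coding genes, 12 in the direct transcript table and 1 with the posterior mean. The direct table's TPM were lower for each receptor, with means 0.529 to 0.627 of those in the gene table, but 0.950 to 1.11 once both were rescaled over protein-coding genes, a comparison chosen after seeing the data. Depth limits Cx3cr1 most, with 41 to 61 counts in a library.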
